A study of Rattus norvegicus with 2 samples.

Results

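The genes described are the collagens of the fetal rat colon other than type IV, chosen as every gene whose symbol reads Col, a number, a and a number, with Col4a1 to Col4a6 left out. These are 36 of the 28116 gene symbols measured. The rule reads symbols only and uses no measured value. Col1a2 and Col6a3, partners of Col1a1 and of Col6a1 and Col6a2, are not among these 36 symbols and were not analysed here. Every collagen sum and role share below therefore lacks them.

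Colon was taken from wild-type (WT) rat fetuses at embryonic stage E19.5, and single cells were sequenced by droplet RNA sequencing. The maternal obesity group is 1 library (replicate 2 in its label) and the control group is 1 library (replicate 1). Both share stage, genotype and tissue. The number of fetuses or litters behind each library, and how maternal obesity was brought about, are not given in the sources used here. With 1 library a group no p-value can be had, and every interval below covers counting error only. Transcripts were counted as unique molecular identifiers (UMIs), which tag single captured molecules, and a level is given as UMIs per 1000000 UMIs of a cell class (CPM). The beads primed at poly-A tails, so levels are not compared between genes.

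Collagens are proteins whose chains wind into a triple helix. Types I, II, III, V and XI build banded fibrils. Types XII, XIV and XVI sit on fibril surfaces, and type VI forms beaded filaments around cells. Types VII, XV, XVII and XVIII lie outside the type IV network but at or near basement membranes, as anchoring fibrils, membrane-spanning proteins or endostatin-bearing multiplexins. In the gut wall, fibroblasts, muscle and mesothelium lay down most fibrillar collagen, and subepithelial fibroblasts line the epithelium.

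The upstream sequences of 4 members follow because the results turn on them. Col5a1 was highest in subepithelial fibroblast-like cells but also had UMIs in epithelium. Col6a1 was higher in maternal obesity in every named mesenchymal class. Col8a1 differed in opposite directions by class, and Col18a1 was highest outside the fibroblasts. Each is the 200 bases before the RefSeq start on build GRCr8, 5′ to 3′ on the gene's strand, and 27 of the 36 members matched the promoter table. Capitals mark the GC box GGGCGG, on either strand. The TATA box TATAAA and the CCAAT box were also searched on both strands, and neither was in these 4 windows. A TATA box can share letters with its own reverse complement, and a window counts once however many matches it holds.
Col5a1 (chr3:31606680-31606879, + strand): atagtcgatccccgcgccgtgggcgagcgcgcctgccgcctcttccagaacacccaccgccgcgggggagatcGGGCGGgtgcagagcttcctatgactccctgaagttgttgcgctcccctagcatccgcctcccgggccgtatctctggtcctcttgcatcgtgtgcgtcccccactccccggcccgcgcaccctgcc
Col6a1 (chr20:11905490-11905689, + strand): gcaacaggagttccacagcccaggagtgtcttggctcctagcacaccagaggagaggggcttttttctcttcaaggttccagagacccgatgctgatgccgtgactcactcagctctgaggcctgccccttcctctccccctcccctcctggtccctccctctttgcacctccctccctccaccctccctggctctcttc
Col8a1 (chr11:56246582-56246781, + strand): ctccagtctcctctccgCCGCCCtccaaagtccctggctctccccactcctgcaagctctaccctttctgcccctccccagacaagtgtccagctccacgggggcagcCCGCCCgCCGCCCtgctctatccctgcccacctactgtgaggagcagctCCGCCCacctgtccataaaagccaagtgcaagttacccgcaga
Col18a1 (chr20:11473445-11473644, + strand): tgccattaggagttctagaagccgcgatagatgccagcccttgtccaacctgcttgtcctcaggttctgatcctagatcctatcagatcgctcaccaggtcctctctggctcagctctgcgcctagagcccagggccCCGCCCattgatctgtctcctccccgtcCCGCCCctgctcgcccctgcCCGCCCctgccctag
The GC box stood in these windows 1 time for Col5a1, 4 times for Col8a1 and 3 times for Col18a1. Over all 33469 windows of the same length in the table, 28.6% held a GC box, 10.4% a TATA box and 29.2% a CCAAT box. The Col6a1 window held no match, which says only that these letters are not there.

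The maternal obesity library had 9714 barcodes and 120811946 UMIs, and the control library had 8903 barcodes and 103013814 UMIs. After filters on genes per barcode and mitochondrial UMIs and removal of called doublets, 7089 maternal obesity cells and 6808 control cells remained. The libraries shared 80 of the kept barcode sequences. Haemoglobin made up 9.98% of the UMIs in the maternal obesity library and 3.48% in the control library. Cells were clustered without any collagen gene, so that collagen levels did not set the classes. Of 33 clusters, 27 were named from marker genes, and 6 stayed unnamed. Fibroblast-like cells (clusters C1, C12 and C27) had 14 of 15 matched markers at least 2-fold over the other classes in maternal obesity and 15 of 15 in control. For smooth muscle-like cells (C8 and C20) this was 14 of 14 in both libraries, and for mesothelium-like cells (C25) 9 of 9 in both. Subepithelial fibroblast-like cells (C17) had 15 of 17 in maternal obesity and 14 of 17 in control, and enteric glia-like cells (C16 and C22) 9 of 10 in both. Cell numbers were uneven: 1073 fibroblast-like cells in maternal obesity and 371 in control, 360 and 87 subepithelial fibroblast-like cells, 443 and 731 smooth muscle-like cells, 45 and 69 mesothelium-like cells, and 1318 and 2754 epithelial-like cells.

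Collagens other than type IV were 0.293% of all UMIs in maternal obesity cells and 0.122% in control cells. This share depends on how many mesenchymal cells each library held, since fibroblast-like cells were 15.1% of maternal obesity cells and 5.45% of control cells. Fibroblast-like cells carried 54.2% of the collagen UMIs in the maternal obesity library and 29.4% in the control library, where smooth muscle-like cells carried 34.8%. By structural role, the fibril-forming genes made up 76.3% of the collagen UMIs in maternal obesity and 78.8% in control. Beaded-filament genes made up 17.2% and 12.2%, and fibril-associated genes 4.67% and 5.51%. These are shares of counted UMIs without Col1a2 and Col6a3, and they do not rank the roles by RNA amount.

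Of the 36 members, 30 had at least 100 UMIs over both libraries. Col7a1 (36 UMIs in maternal obesity and 27 in control), Col19a1 (5 and 4), Col23a1 (1 and 0), Col25a1 (53 and 33) and Col28a1 (8 and 11) lay below that. Col10a1, the collagen of cartilage about to turn to bone, had 0 UMIs in 7089 maternal obesity cells and in 6808 control cells, which allows a share of cells with a UMI of up to 0.0423% and 0.0441%.

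Most members were highest in mesenchymal classes. Here and below, highest means among the 14 named classes, and unnamed clusters are not ranked with them. In the maternal obesity library 21 of 25 members with at least 100 UMIs there had their highest CPM in a fibroblast-like, subepithelial fibroblast-like, smooth muscle-like or mesothelium-like class, against 25.1% of all genes measured that way. In the control library this held for 15 of 23, against 26.3% of all genes. The highest class was the same in both libraries for 23 of the 30 members. The counting intervals of the highest and next class overlapped in at least 1 library for Col2a1, Col6a1, Col6a5, Col6a6, Col9a1, Col9a2, Col11a2, Col12a1, Col13a1, Col17a1, Col18a1, Col20a1, Col24a1, Col26a1 and Col8a2, so their order there is not settled.

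**Figure D1:**
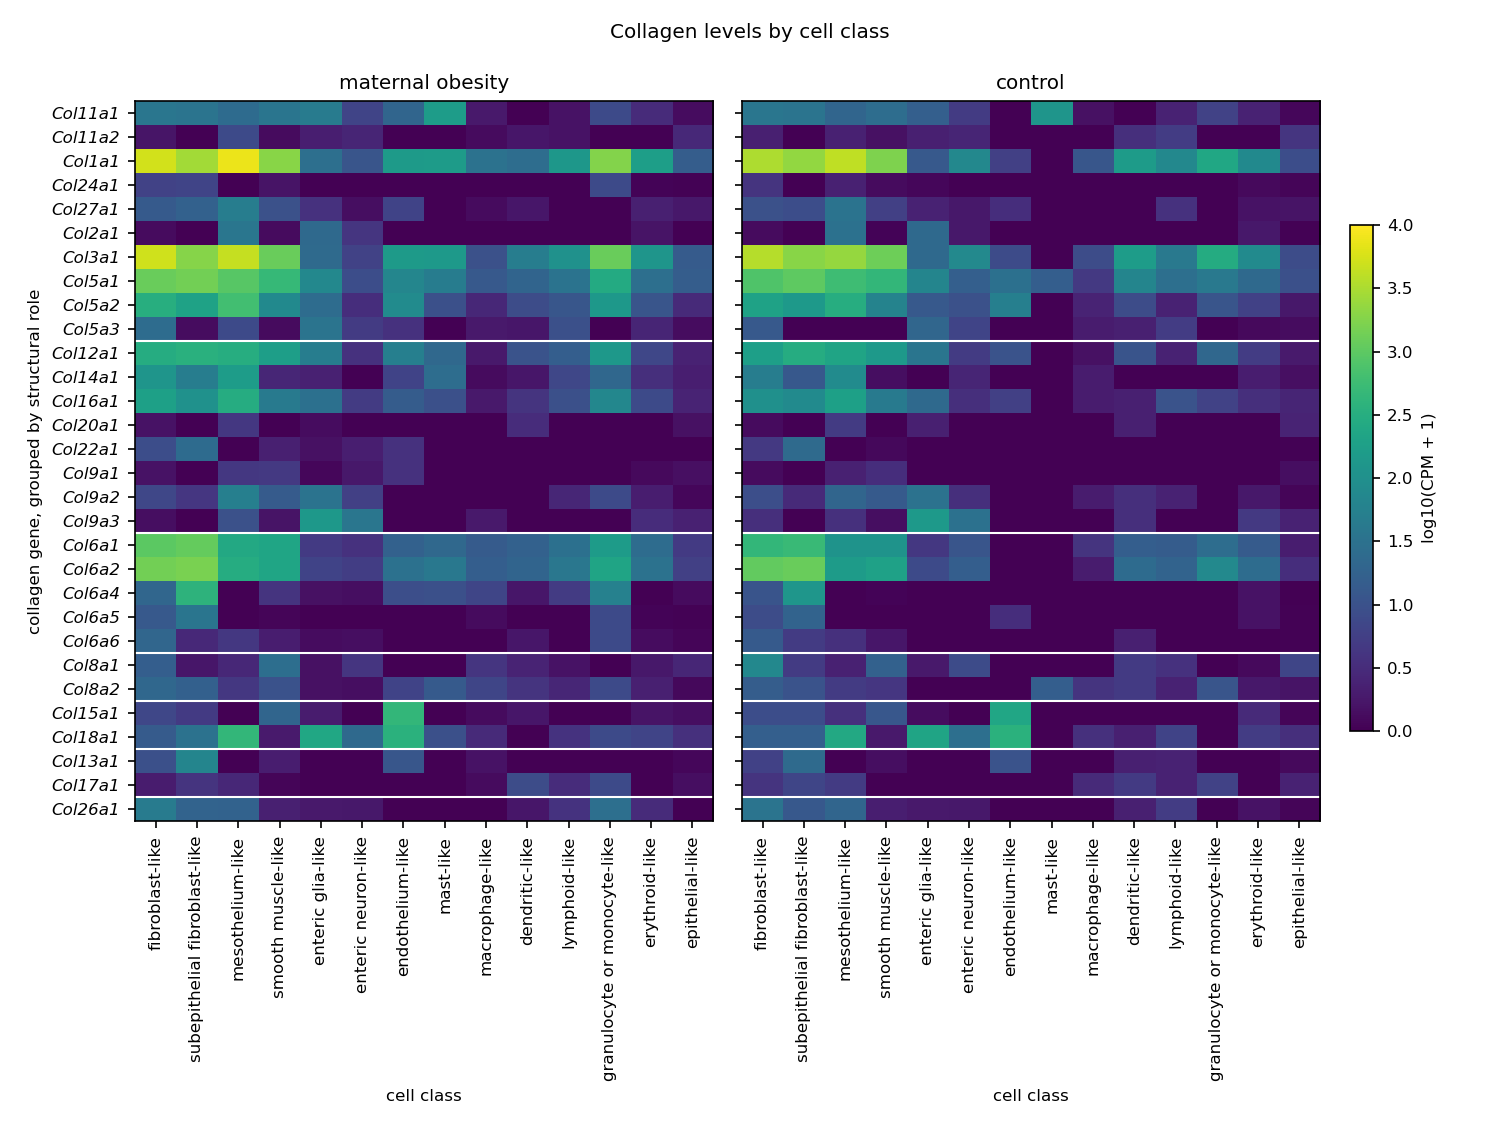
Levels of the 30 collagens with at least 100 UMIs (rows, grouped by structural role, white lines between roles) in 14 named cell classes (columns), as log10(CPM + 1), with maternal obesity on the left and control on the right. Col1a1 and Col3a1 are brightest in fibroblast-like and mesothelium-like cells, Col6a4 in subepithelial fibroblast-like cells, Col9a3 in enteric glia-like cells and Col15a1 in endothelium-like cells in both libraries.

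Among the fibril-forming genes, Col1a1 (a chain of type I, the main fibril of connective tissue) was highest in mesothelium-like cells, at 7671 CPM in maternal obesity and 4147 CPM in control. Fibroblast-like cells followed at 5356 and 3255 CPM. Col3a1, the only chain of type III, was highest in fibroblast-like cells, at 5163 CPM in maternal obesity and 3649 CPM in control. Smooth muscle-like cells had less of both genes, with Col1a1 at 1967 and 1703 CPM and Col3a1 at 1222 and 1319 CPM. Col5a1, a chain of type V that starts fibrils and limits their width, was highest in subepithelial fibroblast-like cells in both libraries, at 1428 CPM in maternal obesity and 1008 CPM in control. Its partner Col5a2 was instead highest in mesothelium-like cells, at 615 and 312 CPM.

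Smaller fibrillar genes had other top classes. Col5a3 was highest in enteric glia-like cells, at 33.7 CPM in maternal obesity and 20.1 CPM in control. Col2a1, best known from cartilage, was found in mesothelium-like cells at 36.6 and 29.8 CPM and in enteric glia-like cells at 22.5 and 22.2 CPM. The glial values rest on 99 cells with a UMI in each library, while 38.1% of the mesothelial Col2a1 UMIs of maternal obesity came from 1 cell. Col27a1 was highest in mesothelium-like cells, at 48.8 and 32.4 CPM.

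Col11a1, a type XI chain, had its highest CPM in mast-like cells, a class of 27 maternal obesity and 20 control cells. The level was 162 CPM in maternal obesity and 119 CPM in control, from 38 UMIs in 8 cells and 16 UMIs in 4 cells. The cell with the most held 13 of the 38 UMIs in maternal obesity and 7 of the 16 in control. Col1a1 in the same control cells had 0 UMIs, and in the maternal obesity cells 34 of its 36 UMIs lay in 1 cell.

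The fibril-associated collagens divided between mesothelium, fibroblasts and glia. Col12a1 was highest in subepithelial fibroblast-like cells in both libraries, at 345 CPM in maternal obesity and 299 CPM in control. Col14a1 was highest in mesothelium-like cells, at 164 and 85.5 CPM, and next in fibroblast-like cells, at 122 and 48.7 CPM. Col16a1 had the same order, with 300 and 185 CPM in mesothelium-like cells and 187 and 99.3 CPM in fibroblast-like cells. Col22a1 was highest in subepithelial fibroblast-like cells, at 24.1 and 23.3 CPM. Of the type IX genes, Col9a3 was highest in enteric glia-like cells, at 133 CPM in maternal obesity and 139 CPM in control, with enteric neuron-like cells next at 35.7 and 29.8 CPM. Col9a2 was at 32.7 and 30.8 CPM in enteric glia-like cells and at 52.3 and 19.4 CPM in mesothelium-like cells. Col9a1 was highest in smooth muscle-like cells, at only 3.55 and 2.32 CPM, with the glial class below that. Type IX collagen coats the type II fibrils of cartilage. Both Col2a1 and Col9a3, but not Col9a1, stood clearly in the glial class, at nearly equal levels in the 2 libraries.

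Most type VI genes were highest in subepithelial fibroblast-like cells. In subepithelial fibroblast-like cells Col6a1 was at 1131 CPM in maternal obesity and 519 CPM in control, and Col6a2 at 1562 and 1213 CPM. Col6a4 had 387 CPM in that class in maternal obesity and 124 CPM in control, against 19.9 and 9.81 CPM in fibroblast-like cells. Col6a5 was also highest there, at 34.8 and 17.5 CPM, whereas Col6a6 was highest among named classes in fibroblast-like cells, at 19.7 and 12.6 CPM, with 14.2 CPM in control cells of unnamed C6. The membrane-spanning Col13a1 shared the subepithelial peak, at 65.6 and 23.3 CPM.

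The multiplexins stood apart from the fibrillar genes. Col15a1 was highest in endothelium-like cells, at 440 CPM in maternal obesity and 235 CPM in control, in classes of 35 and 39 cells. The cell with the most held 22.8% of the UMIs in maternal obesity and 16.3% in control. Smooth muscle-like cells were next, at 19.46 and 11.3 CPM. Col18a1, the precursor of endostatin, was at 359 and 357 CPM in endothelium-like cells, 437 and 263 CPM in mesothelium-like cells and 239 and 216 CPM in enteric glia-like cells, but only at 13.3 and 15.3 CPM in fibroblast-like cells. Its glial UMIs were spread over 413 of 522 cells in maternal obesity and 406 of 518 in control. Of the remaining members, Col26a1 was at 44.4 and 34.02 CPM in fibroblast-like cells, the highest named class, but at 62.2 and 40.1 CPM in unnamed C6.

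The first comparison between the libraries was the summed level of all members in each class. In fibroblast-like cells it was 15307 CPM in maternal obesity and 10022 CPM in control, a ratio of 1.53 (95% interval 1.51 to 1.55). The sum was 15584 and 8513 CPM in mesothelium-like cells (1.83, 1.77 to 1.89) and 10152 and 7753 CPM in subepithelial fibroblast-like cells (1.31, 1.27 to 1.35). Smaller differences were seen in enteric glia-like cells, at 754 and 631 CPM (1.19, 1.14 to 1.25), and in smooth muscle-like cells, at 4528 and 4093 CPM (1.11, 1.09 to 1.12). The median gene of these last classes was itself higher in maternal obesity, by 0.11 on the log2 scale in glia and 0.10 in smooth muscle, so the smooth muscle sum, 0.15 higher, lay close to that of other genes. The mesothelial sum rests on few cells, and 1 maternal obesity cell held 16.9% of it. With coarser clusters (Leiden resolution 0.5) its log2 ratio was 0.29, against 0.87 here. In epithelial-like cells the sum was 68.1 and 50.1 CPM (1.36, 1.29 to 1.44). Its clusters went both ways, with ratios of 4.18 in C9 and 2.03 in C5 but 0.53 in C18 and 0.77 in C19. The log2 ratio of 0.44 was 0.024 with the cells of highest doublet score removed.

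Within single clusters the size of the difference varied. Of the fibroblast-like clusters, C1 had a ratio of 1.26 (1.24 to 1.29), C27 of 1.51 (1.48 to 1.54) and C12 of 1.59 (1.55 to 1.62). C12 was the cycling one, with 10 proliferation genes summing to 5762 CPM in maternal obesity and 5140 CPM in control, against 200 and 154 CPM in C27. Its name is less sure, since its leading genes held the pericyte markers Pdgfrb and Cox4i2 beside the fibroblast markers Lum and Dcn. Its mean marker score was 4.35 for fibroblast and 3.62 for pericyte. Among smooth muscle-like clusters, C20 had a ratio of 1.20 (1.18 to 1.22) while cycling C8 had 1.00 (0.98 to 1.03). Unnamed clusters with smooth muscle genes gave 1.36 (C3), 1.32 (C6, with Kit among its leading genes) and 1.03 (C13, 1.00 to 1.06).

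**Figure D2:**
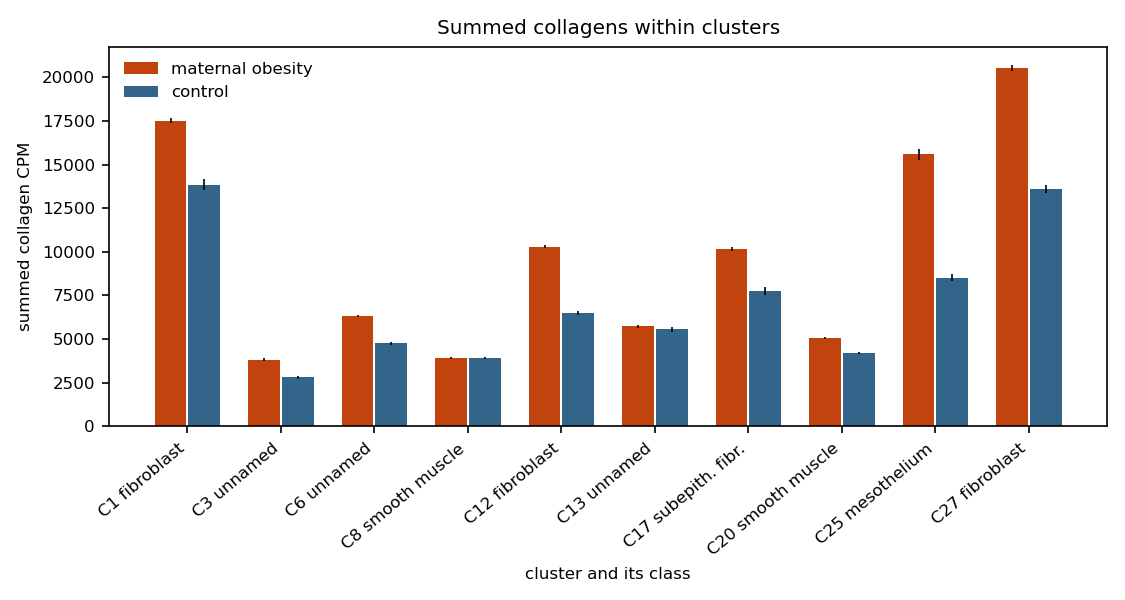
Summed CPM of the 36 collagens in each mesenchymal cluster (bars, maternal obesity left and control right of each pair) with 95% counting intervals; the axis starts at 0. The pair is closest in smooth muscle-like C8, with 3909 and 3904 CPM, and in unnamed C13.

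In fibroblast-like cells 26 members had at least 20 UMIs. Of these, 14 were at least 1.5-fold higher in maternal obesity, where 16.1% of all genes tested were, and 3 were at least 1.5-fold lower, where 5.86% of all genes were. The median log2 ratio was 0.64 over the members and 0.05 over all genes. For Col24a1, Col13a1 and, among the lower ones, Col7a1 the counting interval included 1.

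Col14a1, which bridges fibrils and the matrix around them, was the farthest above control in that class, at 122 CPM in maternal obesity and 48.7 CPM in control, a ratio of 2.49 (2.11 to 2.96). Col6a1 was at 972 and 452 CPM (2.15, 2.04 to 2.27) and Col16a1 at 187 and 99.3 CPM (1.88, 1.67 to 2.12). Col12a1 was at 303 and 178 CPM (1.70, 1.56 to 1.86). Col1a1 differed by 1.65-fold (1.61 to 1.68), Col5a2 by 1.57-fold (1.44 to 1.70) and Col5a1 by 1.56-fold (1.49 to 1.63). In cycling C12 the Col14a1 ratio was 3.38, against 2.05 in C1 and 1.69 in C27.

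Other members were closer between the libraries. Col3a1 was 1.41-fold higher (1.39 to 1.44) and Col6a2 1.29-fold higher (1.24 to 1.34), both short of 1.5-fold. Within C1, Col3a1 had a ratio of 1.05 while Col1a1 had 1.39. Col11a1 was at 36.4 CPM in maternal obesity and 35.6 CPM in control, and the intervals of Col18a1, Col15a1, Col9a2 and Col27a1 included 1. Sparser members past 1.5-fold were Col22a1 (2.16, 1.17 to 4.34), Col5a3 (2.11, 1.505 to 3.04), Col6a4 (2.03, 1.39 to 3.04), Col6a5 (1.64, 1.05 to 2.65) and Col6a6 (1.57, 1.12 to 2.25). Several of these calls ended under an alternative. On the log2 scale Col6a4 was 0.015 with at least 1000 genes per barcode, Col6a5 0.080 with the highest doublet scores removed, Col6a6 -0.0078 with thinned cells and Col5a3 0.40 with clusters weighted equally. Col1a1 (0.548) and Col12a1 (0.52) fell below 1.5-fold at Leiden resolution 2, Col5a1 there (0.547) and with clusters weighted equally (0.57), and Col5a2 at Leiden resolution 0.5 (0.57).

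**Figure D3:**
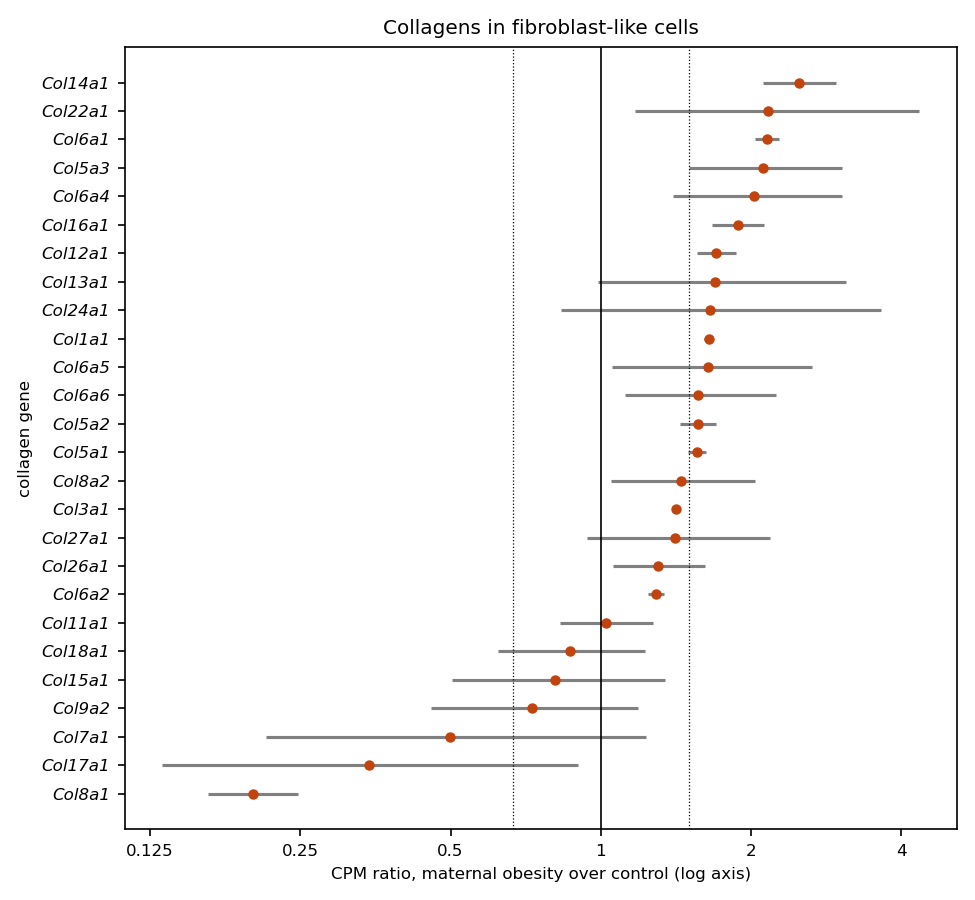
CPM ratio of maternal obesity over control in fibroblast-like cells for the 26 collagens with at least 20 UMIs (points, log axis) with 95% counting intervals (lines); the solid line is a ratio of 1 and the dotted lines are 1.5-fold each way. Most points lie right of 1, Col14a1 is the farthest right at 2.49, and Col8a1 is the farthest left at 0.20.

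Marker sums also differed between the libraries, in both directions. The 15 fibroblast markers matched summed to 5500 CPM in maternal obesity fibroblast-like cells and 3515 CPM in control ones, with none at 0. In the same cells smooth muscle markers summed to 3545 and 4547 CPM, pericyte markers to 736 and 1219 CPM, epithelial markers to 442 and 738 CPM (0 and 2 of 21 at 0) and erythroid markers to 4470 and 1446 CPM (2 and 3 of 11 at 0). Their part in the collagen differences was not tested.

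Col8a1, a short-chain collagen of sheet-like networks known from the cornea and vessel walls, was the exception. In fibroblast-like cells it was at 14.7 CPM in maternal obesity and 73.3 CPM in control, 4.97-fold lower (4.05 to 6.13). These UMIs came from few cells: 154 UMIs in 40 of 1073 cells in maternal obesity and 239 UMIs in 29 of 371 cells in control, with up to 45 and 59 in 1 cell. The log2 ratio was -2.31, against -0.94 with the clusters weighted equally and -3.27 with the cells of highest doublet score removed. Most lay in C27, where Col8a1 was at 30.4 CPM in maternal obesity (15 of 272 cells with a UMI) and 181 CPM in control (19 of 109 cells). In smooth muscle-like cells the order was the other way, at 26.6 and 16.5 CPM (1.61, 1.29 to 2.01). That direction turned with coarser clusters (-0.027 on the log2 scale) and with ComBat adjustment for library before clustering (-0.056). It kept its sign but fell below 1.5-fold with at least 1000 genes per barcode (0.11), with thinned cells (0.14) and with at most 10% Mt- UMIs (0.19). In unnamed C6 the gene was at 27.9 and 49.4 CPM. Col17a1, the hemidesmosome collagen, was also lower in fibroblast-like cells, with 11 UMIs in maternal obesity and 10 in control (0.34, 0.13 to 0.90).

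**Figure D4:**
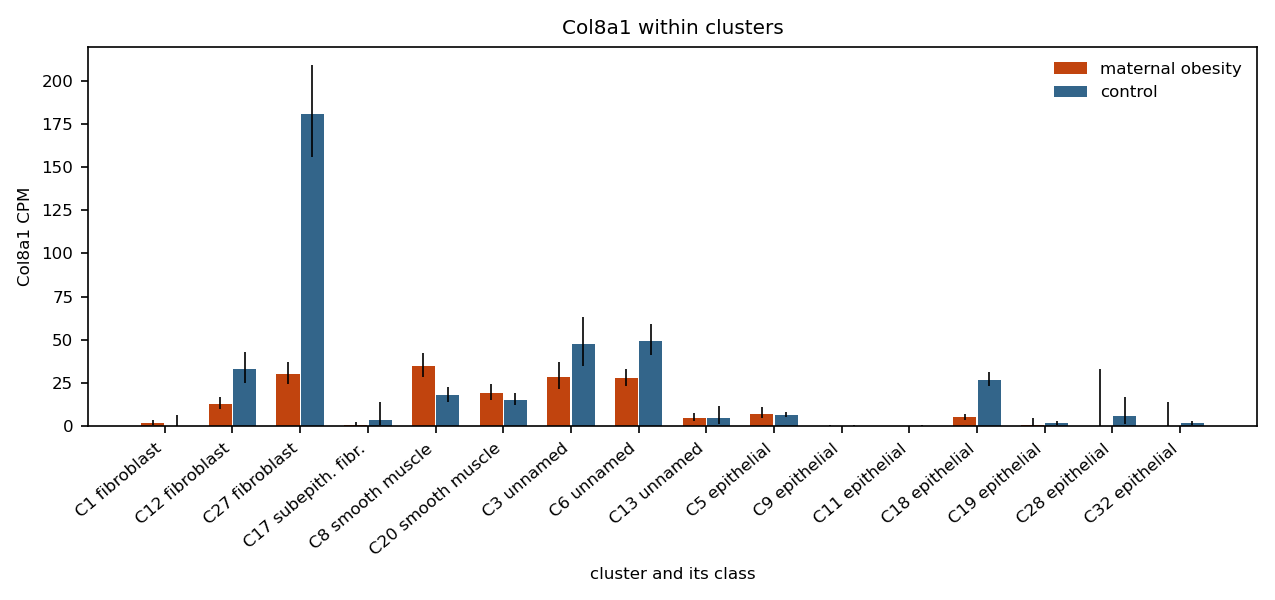
Col8a1 level in CPM in each fibroblast-like, subepithelial, smooth muscle-like, epithelial-like and unnamed mesenchymal cluster (bars, maternal obesity left and control right of each pair) with 95% counting intervals; the axis starts at 0. The control bar of C27 reaches 181 CPM and its maternal obesity bar 30.4 CPM, while in C8 the maternal obesity bar is the higher one.

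Subepithelial fibroblast-like cells had 18 members with at least 20 UMIs. Of these 8 were at least 1.5-fold higher in maternal obesity, where 17.3% of all genes were, and 0 were at least 1.5-fold lower, where 12.9% of all genes were. Col6a4, a type VI chain, was 3.11-fold higher (2.42 to 4.07). Col14a1 was at 48.2 and 11.7 CPM (4.13, 1.85 to 11.5), from only 6 control UMIs. Col13a1 was 2.81-fold higher (1.57 to 5.55), Col6a1 2.18-fold higher (1.92 to 2.48) and Col6a5 1.99-fold higher (1.01 to 4.49). Col6a5 fell below 1.5-fold with Col genes allowed in clustering (0.44 on the log2 scale) and at Leiden resolution 2 (0.57). For Col18a1, Col27a1 and Col8a2, the other 3 past 1.5-fold, the interval included 1. Of the fibrillar genes, Col1a1 had a ratio of 1.25 (1.18 to 1.33) and Col3a1 of 0.97 (0.90 to 1.04). Col5a1 was at 1.42 (1.29 to 1.56) and Col5a2 at 1.40 (1.10 to 1.81), also short of 1.5-fold, unlike Col27a1. With every cell thinned to 3000 UMIs, Col6a4 had a UMI in 49.9% of 345 maternal obesity cells and 27.6% of 76 control cells, and in 0.083% of 1198 and 0 of 2410 epithelial-like cells (95% upper bounds 0.464% and 0.153%). Without thinning those shares were 65.6% and 43.7% of the subepithelial cells. Epithelial markers summed to 537 CPM in the maternal obesity subepithelial cells and 1119 CPM in the control ones (0 and 1 of 21 at 0), macrophage markers to 23.7 and 7.77 CPM (4 and 11 of 14 at 0) and erythroid markers to 17846 and 13580 CPM (1 and 4 of 11 at 0). Their part in the collagen differences was not tested.

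In smooth muscle-like cells 7 of 16 members were at least 1.5-fold higher in maternal obesity (16.9% of all genes) and 0 were lower (5.05% of all genes). Col6a1 was at 225 and 112 CPM (2.01, 1.86 to 2.18), Col8a2 at 9.11 and 3.28 CPM (2.78, 1.77 to 4.45), Col27a1 at 8.65 and 4.75 CPM (1.82, 1.21 to 2.76) and Col15a1 at 19.46 and 11.3 CPM (1.72, 1.32 to 2.25). Col6a4 had 19 UMIs in maternal obesity and 1 in control, a ratio of 27.8 with an interval of 4.41 to 1154, and 13 of the 19 lay in 1 cell. Col8a1 is given above, and the interval of Col9a1, the other member past 1.5-fold, included 1. Col3a1 was slightly lower, at a ratio of 0.93 (0.90 to 0.95). The Col15a1 difference fell below 1.5-fold with ComBat (0.45 on the log2 scale), at Leiden resolution 0.5 (0.45) and with thinned cells (0.13). In these cells erythroid markers summed to 2310 CPM in maternal obesity and 3182 CPM in control (1 of 11 at 0 in both) and epithelial markers to 344 and 558 CPM (1 of 21 at 0 in both), and their part was not tested.

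In enteric glia-like cells 5 of 16 members were at least 1.5-fold higher (18.8% of all genes) and 0 lower (4.05% of all genes), and the median log2 ratio of the members, 0.15, lay near that of all genes, 0.11. Col11a1 was at 44.6 and 14.96 CPM, a ratio of 2.98 (2.32 to 3.85), with UMIs in 169 of 522 maternal obesity cells and 71 of 518 control cells. Thinned to 3000 UMIs a cell, 10.9% of the maternal obesity cells and 3.99% of the control cells had a Col11a1 UMI. In epithelial-like cells thinned alike that share was 0 of 1198 cells in maternal obesity (upper bound 0.307%) and 0.12% of 2410 in control. Median depths before thinning were 9654 and 9108 UMIs in glia-like cells, and 23977 and 15684 in epithelial-like cells. Col5a2 was 2.03-fold higher (1.51 to 2.75) and Col5a3 1.68-fold higher (1.33 to 2.13), the second of these below 1.5-fold with thinned cells (0.48 on the log2 scale). Col1a1 was 2.33-fold higher (1.75 to 3.14), but 1 maternal obesity cell held 37.2% of its UMIs, and its direction turned when barcodes with under 1000 genes were left out. Col9a3 (0.96, 0.87 to 1.06), Col2a1 (1.01, 0.79 to 1.30) and Col18a1 (1.11, 1.02 to 1.20) stayed near 1. Erythroid markers summed to 1499 CPM in the maternal obesity glia-like cells and 136 CPM in the control ones (2 and 4 of 11 at 0), smooth muscle markers to 265 and 156 CPM (0 of 14 at 0 in both) and epithelial markers to 354 and 619 CPM (1 and 2 of 21 at 0). Their part in the collagen differences was not tested.

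In mesothelium-like cells 11 of 15 members were at least 1.5-fold higher (20.2% of all genes) and 0 lower (10.9% of all genes). Col9a2 was at 52.3 and 19.4 CPM (2.69, 1.40 to 5.38), Col6a1 at 260 and 114 CPM (2.28, 1.74 to 3.00), Col5a2 at 1.97-fold (1.67 to 2.33), Col3a1 at 1.91-fold (1.80 to 2.04), Col14a1 at 1.91-fold (1.38 to 2.66), Col6a2 at 1.88-fold (1.48 to 2.40) and Col1a1 at 1.85-fold (1.77 to 1.94). Col18a1 was 1.66-fold (1.38 to 2.01), Col16a1 1.62-fold (1.29 to 2.03) and Col5a1 1.55-fold (1.37 to 1.77) higher. Col27a1 was past 1.5-fold with an interval that included 1. At Leiden resolution 0.5 most of these calls ended, with log2 ratios of 0.033 for Col16a1, 0.12 for Col5a1, 0.17 for Col14a1, 0.24 for Col5a2, 0.265 for Col1a1, 0.32 for Col3a1, 0.45 for Col9a2 and -0.23 for Col18a1. Col6a1 fell below 1.5-fold with thinned cells (0.53). These cells numbered 45 and 69. Fibroblast markers summed to 1695 CPM in the maternal obesity cells and 1156 CPM in the control cells (3 and 5 of 15 at 0). Erythroid markers summed to 1234 and 104 CPM (4 and 5 of 11 at 0) and smooth muscle markers to 456 and 815 CPM (4 and 3 of 14 at 0). The part of these in the difference was not tested.

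Col6a1 and Col6a2 encode chains that are built into the same type VI molecule, and their ratio within a class needs no library total. In fibroblast-like cells there were 0.70 Col6a1 UMIs per Col6a2 UMI in maternal obesity (0.68 to 0.72) and 0.42 in control (0.39 to 0.44). The ratio was 0.72 and 0.43 in subepithelial fibroblast-like cells, 1.00 and 0.59 in smooth muscle-like cells, and 0.93 and 0.64 in unnamed C6. In epithelial-like cells, where both genes are near background, it was 0.79 (0.63 to 1.00) and 0.47 (0.34 to 0.64). Mesothelium-like cells, at 0.87 (0.69 to 1.09) and 0.72 (0.54 to 0.96), and lymphoid-like cells, at 0.78 and 0.77, were closer. The maternal obesity ratio was thus clearly the higher one in the fibroblast-like, subepithelial fibroblast-like and smooth muscle-like classes and in C6. Where both genes are near background, whether the ratio is separate from that of the mesenchymal cells was not tested. The chemistry and read length of each library are not given in the sources used here, and with 1 library a group a difference in library preparation and one between the groups cannot be told apart, for this ratio and for the Col6a1 differences of about 2-fold in each mesenchymal class. Thinned to 3000 UMIs a cell, Col6a1 had a UMI in 87.9% of maternal obesity and 64.3% of control fibroblast-like cells, against 0.67% and 0.37% of epithelial-like cells. Unthinned, the fibroblast-like shares were 98.2% and 86.8%.

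**Figure D5:**
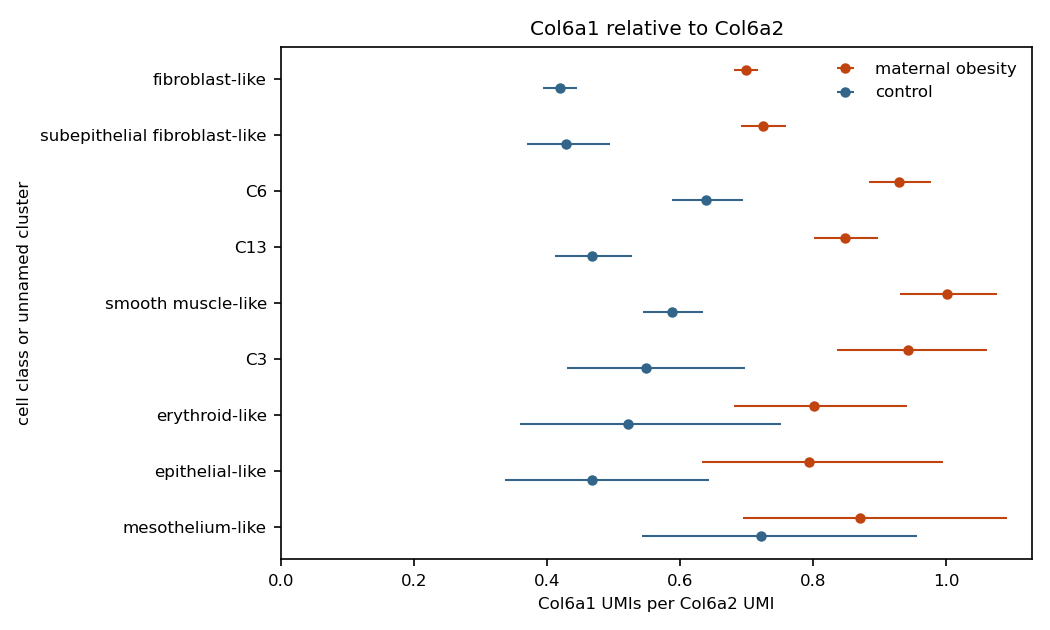
Col6a1 UMIs per Col6a2 UMI in each cell class or unnamed cluster with at least 50 Col6a2 UMIs in each library (points, maternal obesity above control) with 95% counting intervals (lines). The maternal obesity point lies right of the control point in every class plotted, with overlapping intervals in mesothelium-like, epithelial-like and erythroid-like cells.

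The Col1a1 to Col3a1 ratio also differed, by less. It was 1.04 (1.03 to 1.05) in maternal obesity and 0.89 (0.87 to 0.92) in control fibroblast-like cells, 1.61 and 1.29 in smooth muscle-like cells, 1.51 and 1.17 in subepithelial fibroblast-like cells, and 1.74 and 1.80 in mesothelium-like cells. Across single fibroblast-like cells Pearson's r between Col1a1 and Col3a1 was 0.72 in maternal obesity (1073 cells) and 0.68 in control (371 cells), on log-normalized UMIs of cells that share a library and differ in depth and cycling. The r of Col1a1 with Col5a1 was 0.67 and 0.65, and that of Col6a1 with Col6a2 0.55 and 0.56.

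Epithelial-like cells held little of the mesenchymal collagens. Their level was 0.27% of the fibroblast-like level in maternal obesity and 0.24% in control for Col1a1, and 0.25% and 0.20% for Col3a1. Col5a1 lay higher, at 1.14% (1.05 to 1.25) and 1.06% (0.95 to 1.17). In epithelial cluster C11 Col5a1 had 218 UMIs in 127 of 318 maternal obesity cells (21.1 CPM) and 217 UMIs in 149 of 475 control cells (20.05 CPM). Col1a1 in that cluster had 101 UMIs in 23 cells, 60 of them in 1, in maternal obesity and 91 UMIs in 23 cells in control. Col18a1 was at 19.3% and 15.8% of its low fibroblast-like level. Col11a2, a type XI chain, was at 279% and 252%, at 1.87 CPM in maternal obesity and 3.09 CPM in control.

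Between the libraries, 10 of 22 members in epithelial-like cells were at least 1.5-fold higher in maternal obesity (12.3% of all genes) and 6 lower (12.2% of all genes). The higher ones included Col6a1 (3.35, 2.46 to 4.63), Col15a1 (2.92, 1.12 to 8.45), Col14a1 (2.55, 1.52 to 4.38) and Col5a2 (2.41, 1.65 to 3.57). So were Col6a2 (1.98, 1.56 to 2.50), Col1a1 (1.84, 1.62 to 2.097) and Col3a1 (1.75, 1.53 to 2.001). Col5a1 had a ratio of 1.69 (1.48 to 1.92) and Col12a1 of 1.59 (1.06 to 2.38). All of these but Col15a1, which was highest in endothelium-like cells, were highest in a mesenchymal class in both libraries. Col11a1 was past 1.5-fold with an interval that included 1. In maternal obesity 1 cell held 19.1% of the epithelial Col1a1 UMIs, and in cluster C9 3 cells held 38.9% of all collagen UMIs. With the cells of highest doublet score removed, the epithelial Col1a1 difference was -0.025 on the log2 scale, against 0.88 with them. Col12a1 (0.12), Col3a1 (0.525), Col5a1 (0.54) and Col6a2 (0.549) also fell below 1.5-fold in that setting. Fibroblast markers summed to 88.7 CPM in maternal obesity epithelial-like cells and 56.3 CPM in control ones (0 and 2 of 15 at 0), and their part in the collagen differences was not tested.

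The members lower in epithelial-like cells were Col17a1 (0.39 CPM in maternal obesity and 1.43 CPM in control), Col8a1 (1.71 and 5.74 CPM), Col20a1 (0.52 and 1.54 CPM), Col8a2 (0.23 and 0.61 CPM) and Col11a2, together with Col13a1, whose interval included 1. With clusters weighted equally the log2 ratio was 0.68 for Col17a1 and 0.39 for Col8a2, so both changed direction, and -0.12 for Col20a1 and -0.022 for Col11a2, which was at 0.21 with thinned cells. The clusters differed in size between the libraries: C5, C19 and C32 held 114, 59 and 14 maternal obesity cells, against 706, 473 and 266 control cells. Within C5, Col17a1 was at 2.76 CPM in maternal obesity and 3.15 CPM in control. Of the 301 control Col8a1 UMIs, 178 lay in C18, where the level was 5.13 CPM in maternal obesity and 26.98 CPM in control.

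Outside these classes a few cells set some of the values. In the granulocyte or monocyte-like class 3 cells held 96.3% of the collagen UMIs in maternal obesity and 97.2% in control. In control enteric neuron-like cells 1 cell held 83 of 90 Col1a1 UMIs, and in maternal obesity endothelium-like cells 1 cell held 40 of 55, against 2 Col1a1 UMIs in control. In endothelium-like cells Col15a1 was 1.88-fold higher (1.45 to 2.44) and Col18a1 had a ratio of 1.01 (0.79 to 1.28).

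Genes that act on collagens were set beside them in fibroblast-like cells. Of 21 measured genes of collagen folding and modification, 2 were at least 1.5-fold higher and 1 lower (16.1% and 5.86% of all genes), with a median log2 ratio of 0.07. Serpinh1, the collagen chaperone, was at 2193 CPM in maternal obesity and 2552 CPM in control, Ppib at 1232 and 1293 CPM, and P4hb, a subunit of prolyl hydroxylase, at 844 and 888 CPM. The higher ones were Creb3l2 (2.14, 1.67 to 2.79) and P3h2 (2.60, 1.42 to 5.20), and the lower one was Crtapl1, a RefSeq synonym of Crtap, at 97.1 and 155 CPM (1.60-fold lower, 1.44 to 1.78). The folding genes were thus near the median of all genes while the collagens were above it.

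Of 11 measured genes of procollagen processing and cross-linking, 5 were higher and 0 lower (16.1% and 5.86% of all genes), with a median log2 ratio of 0.44. Lox, which oxidizes lysines for cross-links, was at 109 CPM in maternal obesity and 36.8 CPM in control (2.96, 2.45 to 3.61). Tgm2 was 2.33-fold (1.91 to 2.87) and Adamts2, the procollagen N-proteinase, 1.94-fold higher (1.47 to 2.62). Pcolce was at 409 and 404 CPM and Bmp1, the C-proteinase, at 123 and 99.6 CPM.

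Of 12 fibril-binding proteins 7 were higher and 1 lower (16.1% and 5.86% of all genes), with a median of 0.70. Lum was at 1239 and 596 CPM (2.08, 1.98 to 2.18), Dcn at 1614 and 886 CPM (1.82, 1.75 to 1.90), Fn1 at 800 and 457 CPM (1.75, 1.66 to 1.85) and Sparc at 4308 and 3744 CPM, while Ogn was 1.81-fold lower (1.38 to 2.38). Dcn, Lum, Dpt and Ogn are also in the fibroblast marker list.

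Of 7 receptors 2 were higher and 0 lower (16.1% and 5.86% of all genes), with a median of 0.27, so the count lies near the share over all genes. Ddr2, a receptor kinase for fibrillar collagen, was at 55.3 and 34.9 CPM (1.58, 1.29 to 1.95), and the integrin chain Itga2 was at 4.78 and 3.07 CPM (1.56, 0.78 to 3.45). Itgb1, the shared integrin subunit, was at 659 and 639 CPM and Mrc2, which takes up collagen, at 97.5 and 80.9 CPM. Of 12 genes of collagen degradation and its inhibitors 3 were higher and 0 lower (16.1% and 5.86% of all genes), with a median of 0.40. This count too lies near that share. The Timp genes inhibit the degrading metalloproteinases, so the count and median mix opposite functions. Timp2 was 1.78-fold higher (1.60 to 1.99), Mmp9 had 76 and 3 UMIs (7.90, 2.60 to 39.2) and Timp4 was at 3.92 and 2.45 CPM (1.60, 0.74 to 3.95), while Mmp2 was at 518 and 368 CPM, Timp1 at 504 and 559 CPM and Ctsb at 264 and 315 CPM. The type IV genes, outside the members, had 2 of 5 higher and 0 lower (16.1% and 5.86% of all genes), with a median of 0.38. Col4a1 was at 485 and 551 CPM, Col4a5 at 87.0 and 66.8 CPM and Col4a2 at 52.4 and 51.2 CPM, and the intervals of the higher ones, Col4a4 and Col4a6, included 1.

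The genes whose levels were most like the summed collagens over the 14 named classes in both libraries (28 points, log2(CPM + 1), 12278 genes compared) were Flnc (Pearson's r 0.95), Ltbp4 (0.95), Loxl2 (0.94), Fbn1 (0.93), Mmp2 (0.93), Cdh11 (0.92), Mrc2 (0.92), Scarf2 (0.92), Fkbp10 (0.91) and Bgn (0.91). The points share 2 libraries.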

How the data were processed

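Raw UMI counts per gene and barcode were used as deposited by the authors, with Cell Ranger 2.1.1 per the submitters' processing notes and cellranger 6.1.2 per the file headers. The genome build and annotation are not given in the sources used here. Kept barcodes had 500 or more genes and no more than 20% Mt- UMIs (7236 in maternal obesity, 6879 in control). Scrublet in scanpy 1.11.5 called 147 and 71 doublets (2.03% and 1.03%), which were removed, against 7.77% and 7.12% expected from loading at 0.8% per 1000 barcodes, so doublets may remain.

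Cells of both libraries were normalized to 10000 UMIs, log-transformed and clustered on 2000 variable genes without Col genes (30 components, 15 neighbours, Leiden resolution 1). Clusters were named from marker lists by their 10 leading genes and mean marker level. Names were rebuilt here. Counts were summed per class and library and divided by the class total. Ratio intervals are exact conditional binomial at 95%, and shares have Clopper-Pearson bounds. Log2 ratios used 0.5 added UMIs. Intervals cover counting error only.

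Counts of higher or lower genes used the 1.5-fold limit alone, over genes with at least 20 UMIs. A member difference was named with its ratio where its interval was also clear of 1. Per list, the 3 highest genes and up to 3 past 1.5-fold each way were named, also where the interval included 1. The member rule reads symbols only, but the collagens as a subject, the lists and the alternatives were chosen with earlier results of these data known. The ratio and its interval were tested on simulated counts drawn independently of each other. Real UMIs can gather in few cells, so that test says nothing on spread between cells or libraries. The classes with under 20 cells in a library were not used for levels.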

Additional observations from a re-analysis of the deposited data

Results flagged for a closer look

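Col8a1 differed in opposite directions between classes. Its ratio of maternal obesity over control was 0.20 in fibroblast-like cells and 0.30 in epithelial-like cells, but 1.61 in smooth muscle-like cells. Col8a2, the partner chain, had ratios of 0.38 in epithelial-like cells and 2.78 in smooth muscle-like cells. The log2 ratio of Col8a1 in smooth muscle-like cells reached -0.056 with ComBat. That of Col8a2 in epithelial-like cells reached 0.39 with clusters weighted equally. So 1 side of each contrast changed direction under an alternative. These differences between classes were not tested, since each group is 1 library.

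Barcodes left out for few genes or many mitochondrial UMIs were in no comparison. In them the members summed to 90.5 CPM in maternal obesity (86.1 to 95.2, 1536 UMIs in 2478 barcodes) and 57.2 CPM in control (52.7 to 62.0, 603 UMIs in 2024 barcodes).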

How the results depend on the processing

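No paired analysis was possible because each group is 1 library and the replicate numbers differ. Log2 ratios of the member total, as maternal obesity over control, kept their sign in every alternative run for the 6 classes described. In fibroblast-like cells the value was 0.61, and it was 0.58 with Col genes allowed in clustering, 0.55 and 0.50 at Leiden resolutions 0.5 and 2, 0.65 with at least 1000 genes per barcode, 0.53 with clusters weighted equally, 0.68 with the highest doublet scores removed, 0.57 with median-of-ratios size factors and 0.65 without cluster C1, a setting chosen after seeing the data. In subepithelial fibroblast-like cells 0.39 became 0.46 with Col genes allowed, 0.49 with at least 1000 genes, 0.52 with at most 10% Mt- UMIs and 0.55 with the highest doublet scores removed. In smooth muscle-like cells 0.15 became 0.27 with ComBat, 0.31 and 0.28 at Leiden resolutions 0.5 and 2, 0.30 with at least 1000 genes, 0.32 with at most 10% Mt- UMIs, 0.12 with the highest doublet scores removed and 0.020 with median-of-ratios size factors. In enteric glia-like cells 0.26 became 0.15 with at least 1000 genes and 0.14 with median-of-ratios size factors. In mesothelium-like cells 0.87 was lowest at 0.29 (Leiden resolution 0.5), and in epithelial-like cells 0.44 was lowest at 0.024 (highest doublet scores removed). The cause was not tested. Members at least 1.5-fold higher in fibroblast-like cells numbered 10 to 15 (14 as reported), and those lower were 1 with at most 10% Mt- UMIs, with thinning and with a minimum of 100 UMIs, and 5 with no minimum (3 as reported). Members highest in a mesenchymal class numbered 14 to 25 in maternal obesity and 10 to 22 in control, the lowest with thinning, which leaves fewer members with 100 UMIs. A minimum of 20 UMIs for that count was added after seeing the data. A subepithelial class was not found at Leiden resolution 0.5, and classes of 1 cluster have no equal-weight value.

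Of 55 further values, 54 were past 1.5-fold, and 32 of these fell below it or reversed in at least 1 setting. Over 749 pairs of value and setting, 96 moved out of the counting interval and 9 reversed, in 8 values: Col11a2 in epithelial-like cells (0.21, thinned), Col17a1 (0.68) and Col8a2 (0.39) there with clusters weighted equally, Col1a1 there with the highest doublet scores removed (-0.025), Col18a1 in mesothelium-like cells at Leiden resolution 0.5 (-0.23), Col1a1 in enteric glia-like cells with at least 1000 genes (-0.26), Col6a6 in fibroblast-like cells thinned (-0.0078), and Col8a1 in smooth muscle-like cells with ComBat (-0.056) and at Leiden resolution 0.5 (-0.027). Col8a1 in fibroblast-like cells ranged from -3.27 (highest doublet scores removed) to -0.94 (clusters weighted equally), and Col6a1 there from 1.02 to 1.18.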
